A study of Rattus norvegicus with 12 samples.

Results

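The genes described here build, anchor to or cut the extracellular matrix, or hold neighbouring cells together. They are the rows of the deposited table whose names belong to the collagens, laminins, integrins, cadherins, protocadherins, claudins, syndecans, glypicans, thrombospondins, matrix metalloproteinases, ADAM and ADAMTS genes, and a few single adhesion genes such as Fn1, Thy1, Ncam1 and L1cam. In all, 103 of 9694 listed genes (1.06%) were matched. The names were the only criterion. Among these, Col4a3bp, a ceramide transport protein, Itgb3bp, a centromere protein, and Cldnd1 share a name with a family without being a collagen, an integrin or a claudin. This leaves 100 genes sorted into the families by name. The ADAM and ADAMTS genes were counted whether or not the protein is an active protease, and include the ADAMTS-like Adamtsl1 and Adamtsl5.

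RNA came from INS-1, an insulin-secreting tumour line of the rat that stands in for β-cells, and the methods name a subclone of it. There were 12 libraries in 4 groups of 3. CCIB cells received cytokines with I-BET762, CCVC cells cytokines with vehicle, IB cells I-BET762 alone and VC cells vehicle alone, with I-BET762 at 500 nM and the inhibitor or its vehicle given for 48 h beforehand. The cytokine mixture held 10 ng/mL of IL-1β, 100 ng/mL of IFN-γ and 25 ng/mL of TNF-α and was added for 8 h by the treatment protocol and the study's methods, whereas the design text gives 24 h. I-BET762 blocks the bromodomains with which BET proteins read acetylated chromatin. Each group is 1 column of FPKM (fragments scaled by the length of the gene and the size of the library), as the authors' group value, and no library has a column of its own. These columns hold no spread between libraries, so the differences are given without error, p-value or replicate check. The number of reads behind a value is unknown. A gene is called higher or lower where the log2 ratio of the group values, each with 1 FPKM added, reached 1.5-fold.

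Of 14 β-cell markers 11 were listed, and Ins1, the insulin 1 gene, was at 20738 FPKM in CCIB, 10243 in CCVC, 26722 in IB and 11528 in VC. The markers differed between the groups compared here. In CCVC against VC, 6 of the 11 were lower by 1.5-fold or more and none higher (median -0.98 on the log2 scale). Of the 8795 listed genes averaging 1 FPKM or more, 10.2% were lower and 13.9% higher. Against IB, CCIB had 7 lower and none higher, where 12.9% of those genes lay on either side. With I-BET more markers were higher than lower. In IB against VC, 5 were higher and 1 lower (median 0.57), where 4.96% and 10.5% of those genes were. In CCIB against CCVC, 4 were higher and 2 lower (median 0.34), where 3.4% and 11.6% of those genes were. The β-cell factor Mafa was at 92.6 FPKM in CCIB, 55.3 in CCVC, 316 in IB and 192 in VC. The part of these differences in those of the adhesion genes was not tested. None of 10 leucocyte markers was listed, and of 9 endothelial markers only Esam had a mean of at least 1 FPKM. Of 8 acinar and ductal markers 2 were listed, of which the ductal keratin gene Krt7 was at 218 FPKM in CCIB, 193 in CCVC, 141 in IB and 153 in VC. Of 13 mesenchymal markers, 5 were listed, and among these Fn1 and Thy1, both counted here, had such a mean, while Vim was at 0.588 to 1.62 FPKM in the 4 groups. Listing required a call by the authors at an adjusted p under 0.05, so a gene that is not listed may still have been expressed. In RNA from whole cultures, fewer cells of a kind and less RNA per cell cannot be told apart.

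Cells hold to the matrix through integrins, which pair an α with a β chain to bind fibronectin, laminin or collagen, and through syndecans, which carry heparan sulphate chains. Cadherins join like cells across the gap between them. In islets, β-cells sit against a laminin- and collagen-rich basement membrane made largely by endothelial cells, and E-cadherin and N-cadherin link neighbouring β-cells. Metalloproteinases of the MMP, ADAM and ADAMTS families cut the matrix or release the outer parts of membrane proteins, and TIMP proteins inhibit many of them.

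Of the 103 genes, 59 averaged 1 FPKM or more across the groups and 44 did not. Among the 59, CCIB held the highest value of 12 genes, CCVC that of 10, IB that of 17 and VC that of 20. With cytokines alone (CCVC against VC), 10 of the 59 (16.9%) were higher and 11 (18.6%) lower, where 13.9% and 10.2% of all 8795 genes at that level were. Their median log2 ratio was -0.26, beside -0.01 for all genes. With I-BET alone (IB against VC), 4 (6.78%) were higher and 9 (15.3%) lower, where 4.96% and 10.5% of all genes were, and the medians were -0.05 and -0.04. With I-BET added to cytokines (CCIB against CCVC), 5 (8.47%) were higher and 7 (11.9%) lower, where 3.4% and 11.6% of all genes were, and the medians were -0.01 and -0.07. With cytokines added to I-BET (CCIB against IB), 9 (15.3%) were higher and 10 (16.9%) lower, where 12.9% of all genes lay on either side, and the medians were -0.19 and -0.05. A difference of 1.5-fold in at least 1 of these comparisons was seen in 32 of the 59 genes (54.2%) and in 43.1% of all genes. Within single comparisons, the widest gap to the background in percentage points was among the genes lower in CCVC than in VC. Of those 11, 9 stayed past 1.5-fold once ratios were centred. With ratios centred on the median of all genes, the counts were 5 higher and 7 lower in IB against VC and 9 higher and 5 lower in CCIB against IB, so the balance of directions there rests on genes next to the criterion.

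**Figure D1:**
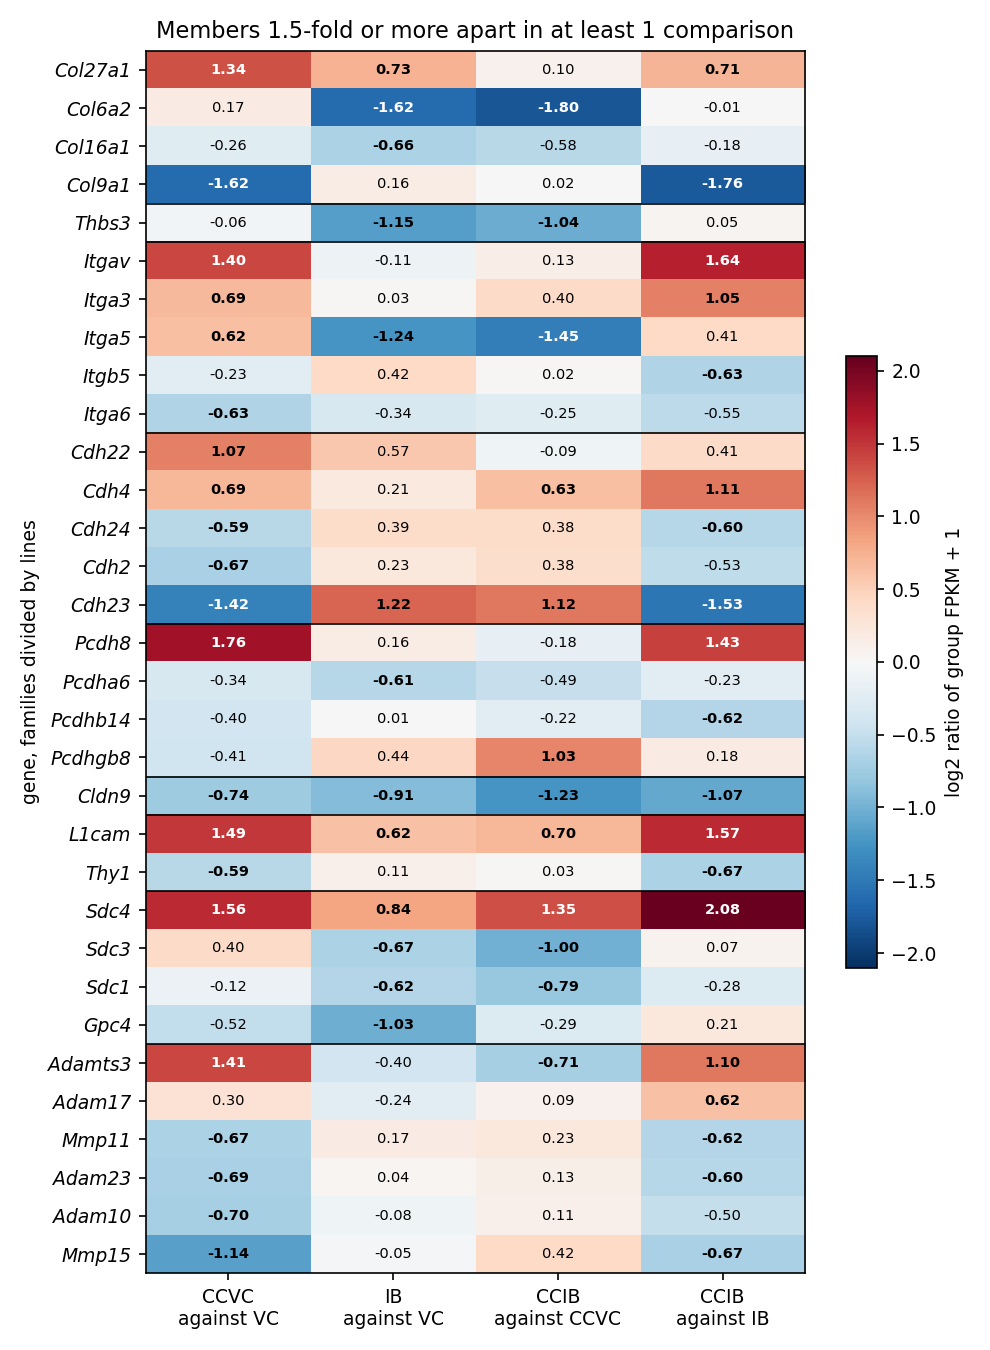
Log2 ratios (group FPKM with 1 added) in the 4 comparisons for the 32 genes that reached 1.5-fold in at least 1 of them, with families divided by lines and ratios of 1.5-fold or more in bold. Sdc4 and L1cam were higher in all 4 comparisons, with ratios of up to 2.08 and 1.57, and Cldn9 was lower in all 4, while Col6a2 differed in the I-BET comparisons and Col9a1 in the cytokine comparisons.

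Among the syndecans, Sdc4 stood apart from the others. Syndecan-4, a heparan sulphate proteoglycan of focal adhesions that acts together with integrins, is encoded by Sdc4 (ENSRNOG00000014297, chromosome 3 from 167052789 to 167071476 as deposited). It was at 198 FPKM in CCIB, 76.8 in CCVC, 46.1 in IB and 25.4 in VC. The level was thus higher with either agent and highest with both, with log2 ratios of 1.56 for CCVC against VC, 0.84 for IB against VC, 1.35 for CCIB against CCVC and 2.08 for CCIB against IB. Sdc1, the main syndecan of epithelia, was at 17.8 FPKM in CCIB, 31.5 in CCVC, 21.9 in IB and 34.3 in VC. Sdc3, a syndecan known from neural tissue, was at 16.0 FPKM in CCIB, 33.1 in CCVC, 15.2 in IB and 24.8 in VC. Both were lower with I-BET, with ratios of -0.79 and -1.0 in cytokine-exposed cells and of -0.62 and -0.67 without cytokines, the opposite of Sdc4. The Sdc1 ratio without cytokines was just short of 1.5-fold (-0.58) once centred. Sdc2 passed 1.5-fold in none of the comparisons and was at 12.9 FPKM in CCIB, 12.5 in CCVC, 18.8 in IB and 17.4 in VC. Since FPKM is a level per length, the 4 can be summed. The sum was 244 FPKM in CCIB, 154 in CCVC, 101.9 in IB and 101.8 in VC, and Sdc4 made up 80.9%, 49.9%, 45.2% and 24.9% of it. The totals of IB and VC were thus close while their make-up differed.

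**Figure D2:**
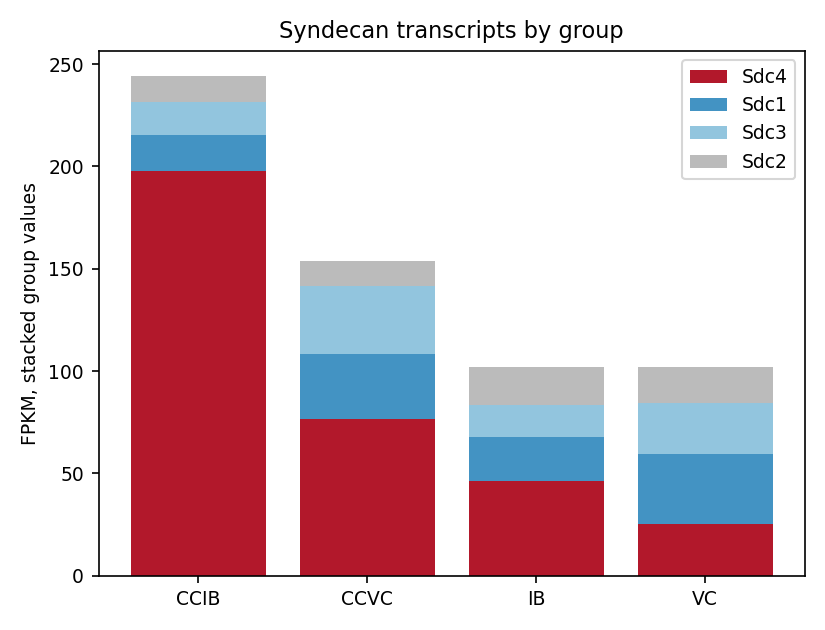
Group FPKM of the 4 syndecan genes, stacked, for CCIB, CCVC, IB and VC, with the linear axis starting at 0. The total was 244 FPKM in CCIB and 101.9 in IB and 101.8 in VC, while the Sdc4 part was 198 FPKM in CCIB and 25.4 in VC.

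The glypicans, proteoglycans held to the membrane by a lipid anchor, were represented by Gpc4 and Gpc3. Gpc4 was at 25.5 FPKM in CCIB, 31.4 in CCVC, 21.8 in IB and 45.5 in VC. Its log2 ratio was -1.03 with I-BET alone and -0.29 with I-BET in cytokine-exposed cells, a difference of 0.74 between the ratios, the largest such difference in size among the 59 genes. Gpc3 had a mean under 1 FPKM. Cd44, the hyaluronan receptor, was not listed.

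IL-1β and TNF-α are known to act through NF-κB. RefSeq promoters of the GRCr8 assembly were found by symbol for 79 of the 103 genes, and the 250 bases before the annotated start were searched on both strands for the NF-κB consensus motif. A match to the NF-κB consensus was found in 3 of the 8 promoters of genes higher in CCVC than in VC (Sdc4, Col27a1 and Itga5), in none of the 6 of lower genes, in 1 of the 27 of genes at neither side, in 2 of the 38 of genes with a mean under 1 FPKM and in 3.54% of all 33469 promoter windows. The 33469 windows may hold several starts of 1 gene and were not limited to listed genes, whereas each of the 79 genes counts once. The share among all genes higher in CCVC than in VC was not computed, so a link to NF-κB was not tested. The annotated start may not be the one used in INS-1 cells, and a match is a string of letters, not a bound site. The promoters of the 3 higher genes with a match are shown beside that of Itgav, the integrin gene with the largest ratio in CCVC against VC, which had none. They are printed 5′ to 3′ from 250 bases before the start to the base before it, with matches in capitals. They lie at chr3:173592924-173593173 on the minus strand (Sdc4), chr5:81662658-81662907 on the plus strand (Col27a1), chr7:136381306-136381555 on the minus strand (Itga5) and chr3:89245132-89245381 on the plus strand (Itgav). The match begins 90 bases before the start in Sdc4 and 176 in Col27a1, where the start is not the outermost one annotated. In the Itga5 promoter the capitals hold overlapping matches, the first of which begins 180 bases before the start. Those of Col27a1 and Itga5 were chosen after the matches were seen.
Sdc4: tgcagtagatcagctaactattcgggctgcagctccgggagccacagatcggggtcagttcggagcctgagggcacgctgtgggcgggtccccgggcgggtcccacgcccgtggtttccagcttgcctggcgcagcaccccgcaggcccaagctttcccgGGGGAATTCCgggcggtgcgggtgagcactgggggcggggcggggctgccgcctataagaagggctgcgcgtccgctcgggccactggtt
Col27a1: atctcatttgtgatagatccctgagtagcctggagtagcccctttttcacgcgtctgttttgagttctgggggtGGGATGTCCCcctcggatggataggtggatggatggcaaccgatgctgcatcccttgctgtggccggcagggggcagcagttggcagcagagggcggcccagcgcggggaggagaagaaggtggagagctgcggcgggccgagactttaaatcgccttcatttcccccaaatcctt
Itga5: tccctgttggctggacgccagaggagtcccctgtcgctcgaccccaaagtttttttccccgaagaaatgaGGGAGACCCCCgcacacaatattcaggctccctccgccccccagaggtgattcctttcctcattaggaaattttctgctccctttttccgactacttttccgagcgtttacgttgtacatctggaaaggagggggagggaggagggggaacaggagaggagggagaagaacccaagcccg
Itgav: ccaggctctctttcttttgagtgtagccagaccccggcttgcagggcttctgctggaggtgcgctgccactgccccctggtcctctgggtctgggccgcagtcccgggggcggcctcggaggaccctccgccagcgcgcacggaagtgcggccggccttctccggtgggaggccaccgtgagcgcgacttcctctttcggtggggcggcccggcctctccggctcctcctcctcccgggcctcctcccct

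Of 15 listed integrin genes, 6 had a mean of at least 1 FPKM. Itgav encodes the αv chain of receptors for vitronectin, fibronectin and latent TGF-β (ENSRNOG00000004912, chromosome 3 from 77644078 to 77727811 as deposited). It was at 44.5 FPKM in CCIB, 40.5 in CCVC, 13.6 in IB and 14.7 in VC, so that the cytokine-exposed groups lay above the others with or without I-BET, with log2 ratios of 1.40 for CCVC against VC and 1.64 for CCIB against IB. Itga3, the α3 chain of a laminin receptor, was at 112 FPKM in CCIB, 84.5 in CCVC, 53.3 in IB and 52.1 in VC, with ratios of 0.69 and 1.05. Itga5, the α5 chain of the classical fibronectin receptor, had another pattern, at 1.38 FPKM in CCIB, 5.49 in CCVC, 0.783 in IB and 3.21 in VC. It was higher with cytokines alone (0.62) and lower with I-BET both without (-1.24) and with cytokines (-1.45). Itga6, the α6 chain of laminin receptors, was lower with cytokines alone, at 2.75 FPKM in CCVC and 4.80 in VC. The β chains differed less. Itgb1, the partner of most of these α chains and the most abundant integrin gene here by its mean, was at 73.4 FPKM in CCIB, 76.6 in CCVC, 88.2 in IB and 92.9 in VC. Itgb5, which pairs with αv, was at 2.29 FPKM in CCIB and 4.08 in IB, a ratio of -0.63, and the table types its row as a processed transcript. Summed over the α chains of at least 1 FPKM (Itga3, Itga5, Itga6 and Itgav), the level was 159.5 FPKM in CCIB, 133 in CCVC, 71.2 in IB and 74.8 in VC. The α sum was thus above the Itgb1 level in the cytokine groups and under it in the other groups. Itgal, the α chain of a leucocyte integrin, was at 0.0719 to 1.61 FPKM and highest in VC.

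**Figure D3:**
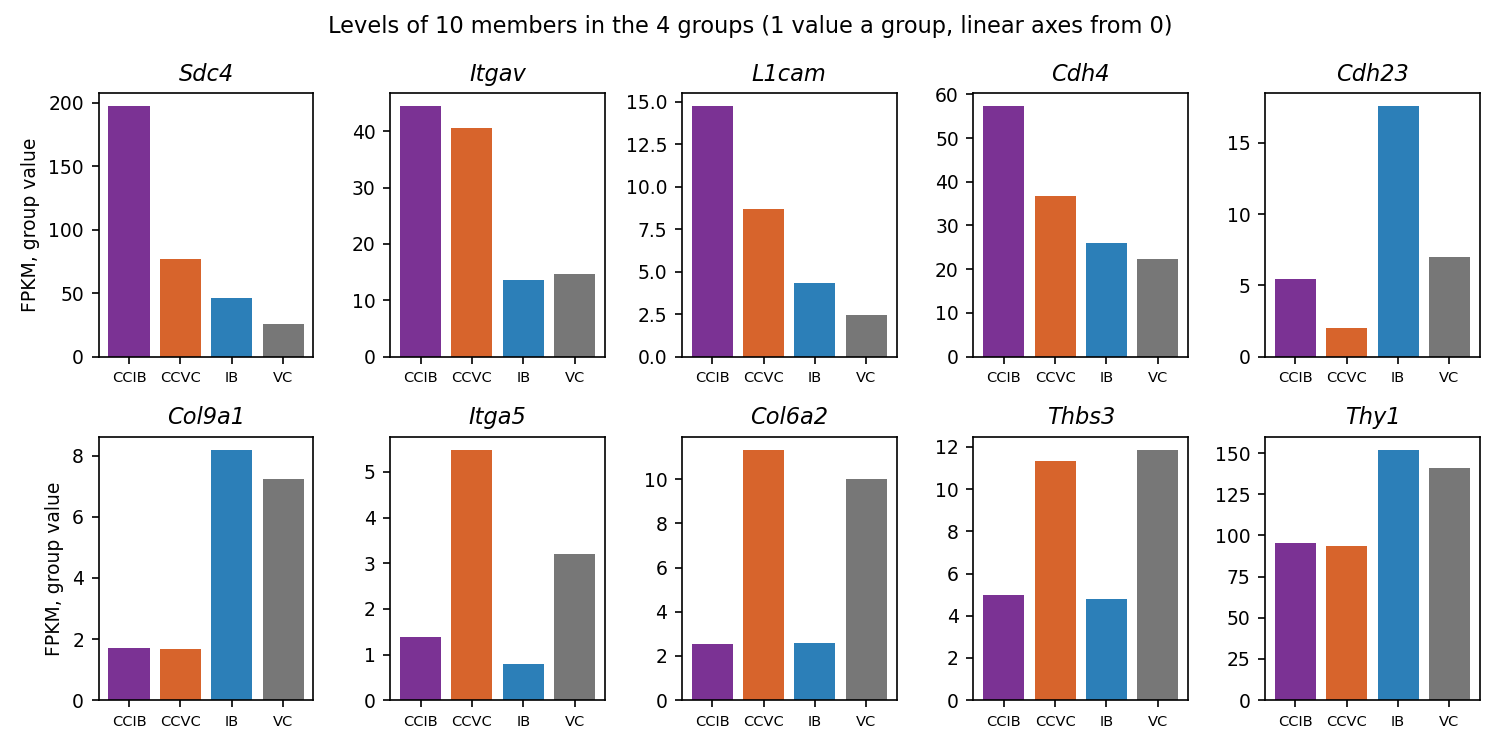
Group FPKM of 10 genes in CCIB, CCVC, IB and VC, 1 value a group, on linear axes that start at 0 and differ between panels. Sdc4, L1cam and Cdh4 were highest in CCIB, Itgav was at 44.5 and 40.5 FPKM in CCIB and CCVC, Cdh23 and Col9a1 were highest in IB, and Col6a2 and Thbs3 were low in the I-BET groups.

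The cadherins differed in direction. Cdh1, which encodes E-cadherin of epithelial junctions and had the highest mean of all 103 genes, was at 169 FPKM in CCIB, 170.3 in CCVC, 120.3 in IB and 161 in VC, and passed 1.5-fold in none of the comparisons. Cdh2, N-cadherin, was lower with cytokines alone, at 24.5 FPKM in CCVC and 39.7 in VC (log2 ratio -0.67), and was at 32.1 in CCIB and 46.7 in IB. Cdh4, R-cadherin, went the other way, at 57.3 FPKM in CCIB, 36.8 in CCVC, 26.0 in IB and 22.4 in VC. Of the 3 summed, Cdh2 and Cdh4 made up 12.4% and 22.2% in CCIB and 17.8% and 10.1% in VC. Cdh22, a cadherin known from the brain, was at 37.0 FPKM in CCIB, 39.5 in CCVC, 27.7 in IB and 18.3 in VC, and its ratio with I-BET was 0.57 without cytokines and -0.09 with them. Cdh23, a long cadherin of the tip links of hair cells (ENSRNOG00000033087, chromosome 20 from 31669366 to 31817711 as deposited), was at 5.46 FPKM in CCIB, 1.98 in CCVC, 17.6 in IB and 7.0 in VC. It was lower with cytokines (-1.42 without and -1.53 with I-BET) and higher with I-BET (1.22 without and 1.12 with cytokines). Cdh24 was at 4.55 FPKM in CCVC and 7.35 in VC, a ratio of -0.59 that was just short of 1.5-fold once ratios were centred on the median of all genes. Cdh6, Cdh8, Cdh10 and Cdh11 had means under 1 FPKM.

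Of 18 listed protocadherin genes, which encode the cadherin-related proteins that give neurons surface identities, 13 lie in the α, β and γ cluster on chromosome 18, between 29684456 and 30660582 as deposited. Of these, 11 had a mean of at least 1 FPKM, and all 11 had a log2 ratio under 0 in CCVC against VC, between -0.50 and -0.01 with a median of -0.37, though none reached 1.5-fold, where 50.3% of all genes were under 0. In CCIB against IB, 9 lay under 0 and 2 above it (Pcdhgb2 and Pcdhgb8), with a median of -0.28, where 52.9% of all genes were under 0. With I-BET the cluster genes lay on both sides of 0, with 6 under and 5 above in IB against VC and 8 under and 3 above in CCIB against CCVC. Of all genes, 54.3% and 57.5% were under 0 in these 2 comparisons. Pcdhgb8 stood out, at 10.8 FPKM in CCIB, 4.75 in CCVC, 9.38 in IB and 6.65 in VC, a log2 ratio of 1.03 for CCIB against CCVC and 0.44 for IB against VC. The neighbour Pcdhga12, the most abundant of the cluster, was at 16.2 FPKM in CCIB, 16.7 in CCVC, 17.9 in IB and 20.5 in VC. Pcdha6 was lower with I-BET alone, at 5.40 FPKM in IB and 8.74 in VC, a ratio of -0.61 that fell short of 1.5-fold under either rescaling. Members of this cluster are similar in sequence and α and γ transcripts share exons, so the counting may have split their reads unevenly, and Pcdhgb2 is typed as a pseudogene. Outside the cluster, Pcdh8 was at 2.79 FPKM in CCIB, 3.28 in CCVC, 0.405 in IB and 0.261 in VC, and reached a mean of 1 FPKM only through the cytokine groups.

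**Figure D4:**
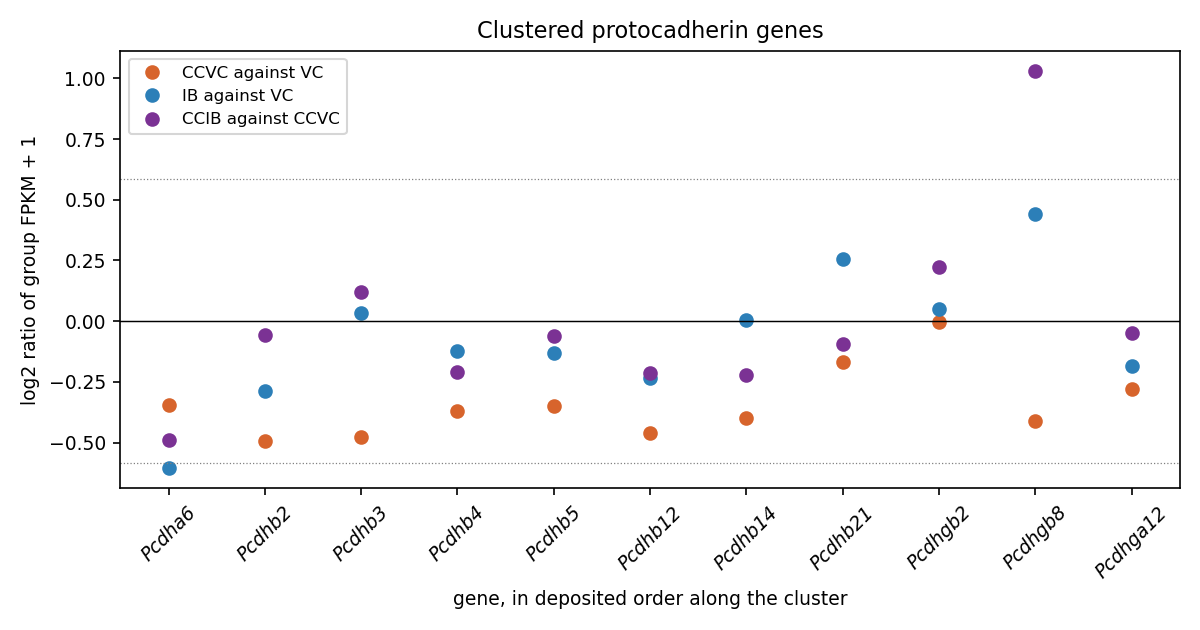
Log2 ratios (group FPKM with 1 added) of the 11 clustered protocadherin genes of at least 1 FPKM in 3 comparisons, with genes in the deposited order and dotted lines at 1.5-fold. All 11 points of CCVC against VC lie under 0, and Pcdhgb8 lies at 1.03 in CCIB against CCVC.

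Among the adhesion molecules of the immunoglobulin superfamily, L1cam, a neural adhesion molecule (ENSRNOG00000037274), was higher in all 4 comparisons. It was at 14.8 FPKM in CCIB, 8.70 in CCVC, 4.32 in IB and 2.46 in VC. Thy1, a lipid-anchored protein of neurons and lymphoid cells, was at 95.5 FPKM in CCIB, 93.7 in CCVC, 152 in IB and 141 in VC. Its ratio of -0.59 with cytokines alone was just short of 1.5-fold once centred, while that of CCIB against IB was -0.67. Ncam1, the neural cell adhesion molecule also found on islet cells, was at 45.9 FPKM in CCIB, 33.5 in CCVC, 52.4 in IB and 44.2 in VC, and Ncam2 was under 3 FPKM in each group. Vcam1 was not listed. Cldn9 was the only claudin listed, and claudins seal tight junctions. It was lower in all 4 comparisons, at 4.61 FPKM in CCIB, 12.2 in CCVC, 10.8 in IB and 21.1 in VC, so that the lowest level was that of both agents together.

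The listed collagen genes were mostly low, and a collagen gene that is not listed may still have been expressed. Of 13 listed collagen genes, 4 had a mean of at least 1 FPKM, and the 13 summed to 14.6 FPKM in CCIB, 28.0 in CCVC, 17.4 in IB and 25.6 in VC. Col6a2, the α2 chain of the microfibrillar collagen VI (ENSRNOG00000001254, chromosome 20 from 14931526 to 14959214 as deposited), had the highest mean of them. It was at 2.54 FPKM in CCIB, 11.3 in CCVC, 2.57 in IB and 9.99 in VC. The level was thus low in both groups with I-BET, with log2 ratios of -1.80 with and -1.62 without cytokines, and was little different with cytokines (0.17). Col9a1, a chain of the cartilage collagen IX, showed the reverse dependence, at 1.71 FPKM in CCIB, 1.68 in CCVC, 8.21 in IB and 7.23 in VC. Col27a1, a fibrillar collagen, was at 7.47 FPKM in CCIB, 6.92 in CCVC, 4.17 in IB and 2.12 in VC, and its ratio with I-BET was 0.73 without cytokines and 0.10 with them. Col16a1 was lower with I-BET alone, at 1.16 FPKM in IB and 2.40 in VC. The basement membrane collagens Col4a1, Col4a3 and Col4a4 were under 1 FPKM in each group.

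Laminins, the glycoproteins that organise basement membranes, passed 1.5-fold in none of the comparisons. Lamb3, a chain of laminin-332, was at 42.8 FPKM in CCIB, 50.1 in CCVC, 34.2 in IB and 43.1 in VC, whereas Lama3, the α chain of the same trimer, was at 0.00866 to 0.164 FPKM. Lama5 was at 3.06 to 5.12 FPKM and Lamc1 at 3.50 to 5.10. Fn1, fibronectin, was near level at 151 FPKM in CCIB, 133 in CCVC, 155 in IB and 135 in VC, with the smallest ratio of highest to lowest group among the 59 genes, 1.16. Thbs3, a thrombospondin of the matrix (ENSRNOG00000020524, chromosome 2 from 207943473 to 207955131 as deposited), resembled Col6a2. It was at 5.01 FPKM in CCIB, 11.3 in CCVC, 4.79 in IB and 11.9 in VC, with ratios for I-BET of -1.04 with and -1.15 without cytokines. Of the enzymes that modify collagen, the lysyl hydroxylase gene Plod1 was at 3.93 to 5.59 FPKM and the lysyl oxidase-like gene Loxl3 was under 1 FPKM in each group.

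Of the 22 listed MMP, ADAM and ADAMTS genes, 10 had a mean of at least 1 FPKM, and with cytokines alone 4 of these were lower by 1.5-fold or more and 1 was higher, where 10.2% and 13.9% of all genes were. In CCIB against IB, 3 were lower and 2 higher, and of the 3 only Mmp15 stayed past 1.5-fold once ratios were centred. Mmp15, a membrane-bound metalloproteinase, was at 4.99 FPKM in CCIB, 3.48 in CCVC, 8.55 in IB and 8.87 in VC. Adam10, which releases the outer parts of E-cadherin and N-cadherin among others, was at 19.1 FPKM in CCIB, 17.6 in CCVC, 27.4 in IB and 29.2 in VC, and had the highest mean of these genes. Adam23, counted here by its name and not for protease activity, and Mmp11 were lower too, at 2.54 and 0.660 FPKM in CCVC and 4.69 and 1.64 in VC. Adamts3, which trims the amino-terminal ends of procollagens, was the higher one, at 4.61 FPKM in CCIB, 8.15 in CCVC, 1.61 in IB and 2.45 in VC, with ratios of 1.41 for CCVC against VC and -0.71 for CCIB against CCVC. Adam17, the protease that releases TNF from cells, was at 13.4 FPKM in CCIB, 12.5 in CCVC, 8.37 in IB and 10.0 in VC, and Adam9 at 21.0, 14.7, 21.4 and 15.7. Timp2, the only listed TIMP gene, was at 3.58 FPKM in CCIB, 3.54 in CCVC, 3.67 in IB and 5.66 in VC.

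The difference with I-BET could be read once with and once without cytokines, from columns that are not shared. Of the 59 genes, 49 (83.1%) had the same sign in CCIB against CCVC and in IB against VC, beside 80.7% of all genes, and the log2 ratios correlated at r = 0.87 over these 59 genes and 0.76 over all genes, as a description across genes that are not independent. Col6a2, Thbs3, Itga5, Sdc1, Sdc3 and Cldn9 were lower in both, 6 of the 7 genes lower with cytokines present and of the 9 lower without. Over all genes, 616 were lower in both, of 1022 and 921. Sdc4, Cdh23 and L1cam were higher in both, 3 of the 5 and of the 4, and over all genes 164 were, of 299 and 436. For cytokines, 54 of the 59 (91.5%) had the same sign with and without I-BET, beside 88.3% of all genes, with r = 0.92 and 0.89. Of the genes higher with cytokines, 8 were so in both states, of 9 with I-BET and 10 without, and of the lower ones 8 of 10 and 11. Over all genes 891 were higher in both, of 1136 and 1223, and 662 lower in both, of 1138 and 900. None of the 59 genes was on opposite sides of 1.5-fold in either pair. Of all 8795 genes, 12 were for I-BET and 10 for cytokines. The ratio with I-BET differed by 1.5-fold or more between cytokine-exposed and other cells for Gpc4 (0.74) and Pcdhgb8 (0.59), where it was the greater with cytokines, and for Cdh22 (-0.66) and Col27a1 (-0.63), where it was the smaller. These are 3.39% of the 59 in either direction, where 2.01% and 2.84% of all genes were, and the difference was not tested.

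**Figure D5:**
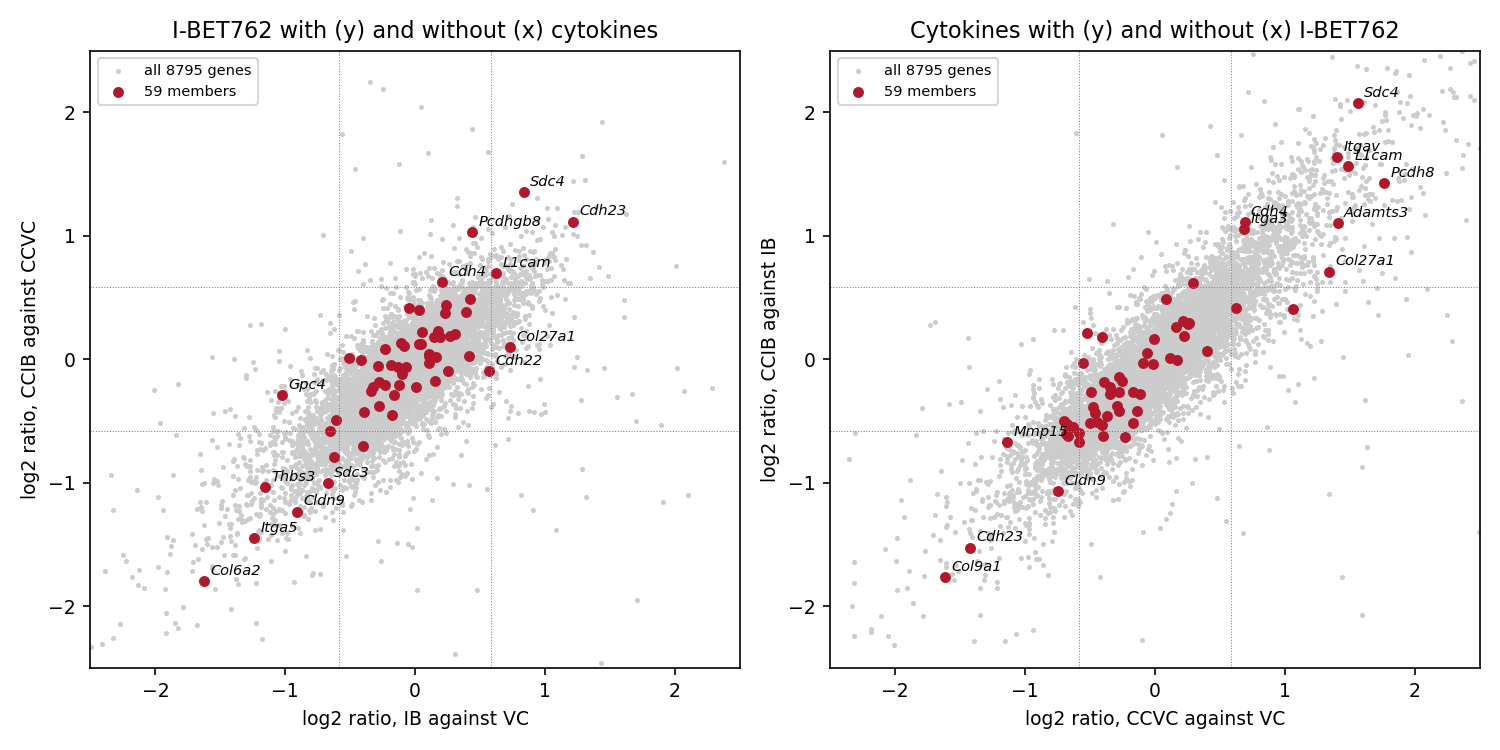
Log2 ratios of the 59 genes (red) and all 8795 genes (grey), with I-BET against vehicle in cytokine-exposed (y) and other cells (x) on the left, and cytokines against none with (y) and without I-BET (x) on the right, where dotted lines mark 1.5-fold. The axes stop at 2.5, which leaves 10 grey genes outside on the left and 106 on the right. Sdc4 and Cdh23 lie at the upper right and Col6a2 and Itga5 at the lower left of the I-BET plot.

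Of the 44 genes with a mean under 1 FPKM, 13 reached 1 FPKM in some group. The highest value was that of Col5a3, a fibrillar collagen chain, at 0.363 FPKM in CCIB, 2.43 in CCVC, 0.133 in IB and 0.863 in VC. Pcdh11x was at 1.91 FPKM in CCIB, 1.08 in CCVC, 0.351 in IB and 0.243 in VC. Adamts4, which cuts aggrecan, was at 1.22 FPKM in CCIB and 0.333 in CCVC, at 0.00435 in IB and listed at 0 in VC. At the border, Col5a3 had a mean of 0.947 FPKM and Itga4 of 0.936, while Mmp17 had 1.09 and Pcdh15 1.16. Among the 59 genes kept, 6 (Col16a1, Itga5, Mmp11, Mmp17, Pcdh15 and Pcdh8) had a group under 1 FPKM.

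Other genes of the same processes were counted from lists of textbook members. Of 23 further adhesion genes at 1 FPKM or more, 5 were higher and 4 lower by 1.5-fold or more in CCVC than in VC. In IB against VC, 4 of the 23 were higher (Cadm1, Pvrl3, Jam3 and Alcam) and 3 lower (Tjp3, Ocln and Bcam). For this and the lists that follow, the shares over all genes were 13.9% higher and 10.2% lower in CCVC against VC and 4.96% and 10.5% in IB against VC. Icam1, the leucocyte ligand that cytokines induce in many cells, was at 144 FPKM in CCIB, 108 in CCVC, 2.91 in IB and 2.47 in VC. Tjp3, a tight junction scaffold, was at 61.4 FPKM in CCIB, 96.8 in CCVC, 11.6 in IB and 24.2 in VC, and Ocln, occludin, at 9.10, 18.5, 13.2 and 23.7. Both were lower in IB than in VC, as Cldn9 was, whereas the junction genes Tjp1 and Marveld2 were short of 1.5-fold there (0.22 and 0.08). The laminin receptor gene Bcam was at 31.0 FPKM in CCIB, 66.8 in CCVC, 33.2 in IB and 62.3 in VC, low in the I-BET groups like Col6a2 and Thbs3. Of 18 rows for cytoplasmic linkers of integrins and cadherins, the ratio of CCVC against VC was past 1.5-fold upwards for 5 and downwards for none. Ctnnd2 takes up more than 1 row, and both its rows (0.82 and 0.69) were among the 5, beside Tln2, Vcl and Zyx. Among the rows short of 1.5-fold, Parvb was at 14.4 FPKM in CCVC and 20.5 in VC. The median log2 ratio of the 18 rows, with Ctnnd2 counted by row, was 0.34, beside -0.01 for all genes. Zyx, a focal adhesion protein, was at 22.9 FPKM in CCIB, 23.6 in CCVC, 6.11 in IB and 9.42 in VC, and Ctnnb1, β-catenin, at 183, 145, 125 and 103, with ratios under 1.5-fold in each comparison. Of 8 further matrix genes, 3 were lower and 1 higher in IB than in VC. Agrn, agrin, was the higher one, at 19.7 FPKM in CCIB, 10.6 in CCVC, 6.59 in IB and 3.93 in VC, with the same order of groups as Sdc4 and L1cam. The lower ones were Ltbp3, at 15.8 FPKM in CCIB, 30.3 in CCVC, 14.5 in IB and 27.9 in VC, Tgfbi and Bgn. Of 6 genes of collagen maturation, 1 was higher and 2 lower in CCVC than in VC, and in IB 2 were higher than in VC and none lower. Of 14 further proteases and inhibitors, 3 were higher and 2 lower in CCVC than in VC, and 3 were higher and 4 lower in IB than in VC. Htra3, a serine protease, had the largest ratio of these in CCVC against VC (4.04), at 18.2 FPKM in CCIB, 66.9 in CCVC, 0.598 in IB and 3.11 in VC. Plat, the tissue plasminogen activator, was at 29.6 FPKM in CCIB, 7.05 in CCVC, 7.82 in IB and 2.25 in VC, and Tll1, a procollagen protease, at 5.60, 13.7, 2.02 and 8.21.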

How the data were processed

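Per the study's methods, the authors filtered the reads, aligned them with HISAT2 and expressed each gene as FPKM, deposited as 1 column per group. Tool versions, the read counter and the genome build are not given in the sources used here. Library values that a supplement of the study gives for some genes were not used. The table holds genes called at an adjusted p under 0.05 and 0 library columns, so no test across libraries was run on it. The study's methods give a minimum number of reads per sample, but the reads behind each value are unknown. Genes were taken by name, sorted into families by name, and kept where they averaged 1 FPKM or more across the 4 groups. Log2 ratios used a pseudocount of 1 FPKM, which understates the differences of low genes, and were counted at 1.5-fold. The genes, families, lists and comparisons were chosen with earlier results of these data known. Genes were named if they reached 1.5-fold in any comparison or the difference between I-BET ratios, or had the highest mean of a family. All other genes named were chosen after their values were seen. RefSeq promoters (GRCr8) were matched by symbol, 250 bases before the start. The calculation was tested on simulated data. Python 3.11.15, numpy 2.4.6, pandas 2.3.3 and matplotlib 3.10.9 were used.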

Additional observations from a re-analysis of the deposited data

How the results depend on the processing

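The counts and medians were recomputed with a pseudocount of 0.1 FPKM, without a minimum, with a minimum mean of 5 FPKM, with ratios centred on their median, with columns scaled to 1 upper quartile, at 2-fold and, added after seeing the data, without the 3 genes of another protein. Without a minimum the median for CCVC against VC was -0.0401, that for CCIB against IB was -0.0280, and 7 genes passed 1.5-fold in the difference between I-BET ratios. With a minimum of 5 FPKM, of the 39 genes kept, 7 were lower for CCVC against VC and 5 for CCIB against IB. With centred ratios 5 were lower in CCIB against IB, and the 5 that fell short were Adam23, Cdh24, Itgb5, Mmp11 and Pcdhb14. At 2-fold, 3 genes were lower in CCVC against VC, 1 higher and 4 lower in IB against VC, 3 higher in CCIB against CCVC, 3 lower in CCIB against IB, and 0 differed in the I-BET ratio. All other counts stayed within 1.5 times and medians within 0.1. Over all genes, the number past the criterion in the I-BET ratio difference was 427, with 651 at the pseudocount of 0.1 and 236 at the minimum of 5 FPKM. At that minimum, 899 rather than 1357 genes passed in IB against VC and 839 rather than 1321 in CCIB against CCVC. At 2-fold, 753 of 2123 remained for CCVC against VC, 372 in IB against VC, 343 in CCIB against CCVC, 789 of 2274 in CCIB against IB and 101 in the difference. No named ratio reversed its sign, and Thy1, Cdh24, Sdc1 and Pcdha6 each lost a call on centring, as stated. No scaling moved the median of all genes by over 0.1. No paired analysis was possible because the columns are group values with no replicate number, and fits without 1 library were not run, since the table has no library columns.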

Other observations

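The deposited table placed L1cam on chromosome 1, whereas RefSeq's GRCr8 annotation places it on chromosome X. Of 100 genes matched by symbol, 99 were on the same chromosome in both.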
